A study of Mus musculus with 1 sample.

Results

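Secondary and tertiary neutrophil granule genes were described in BM cells of the Ctrl group that are labelled c-kit+. The 10 genes *Ltf*, *Camp*, *Ngp*, *Lcn2*, *Chil3*, *Mmp8*, *Mmp9*, *Lyz2*, *Hp* and *Cd177* were taken by name, as genes of granule proteins made from the myelocyte stage on, out of 54532 genes listed for the library. All 10 symbols were found in the annotation, each with 1 gene identifier of the deposited table. The data are 1 RNA-seq library of C57BL/6 mice of the wild type genotype, with no treatment named. Their bone marrow cells were sorted by FACS for c-kit, and the label adds a gate for cells without lineage markers and without Sca-1. The mouse strain carrying a floxed *Gadd45g* allele and Vav-Cre, which acts in blood cells, gave the study's diseased group, which was not analysed here. The age, sex and number of the Ctrl mice in the library are not given in the sources used here. There were no replicates, so the values below carry counting error alone, and no p-value was computed.

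Neutrophils fill their granules in waves as they mature in the marrow. Promyelocytes make the proteins of primary (azurophil) granules, such as myeloperoxidase and elastase. Myelocytes and metamyelocytes then make those of secondary (specific) granules, such as lactoferrin and cathelicidin, and band cells make those of tertiary (gelatinase) granules, led by MMP9. The transcription factor C/EBPε is required for the secondary granule genes, and the proteins are stored until the neutrophil meets a microbe or leaves a vessel.

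The level of each gene is in FPKM, which is fragments scaled by the length of the gene and by the total of the library. Fragments counted back from the FPKM values summed to 17113323, which is 8.42% above the library total of 15783891 that the scale of the values gives, and the cause was not tested. Of these, 15899824 lay on genes whose FPKM times length was a whole multiple of a common step. That part alone was already above the library total, and the rest came from multiples that were not whole and were rounded. Between 15822 and 163363 fragments lay on each granule gene. The labelled cell type was checked against its markers first. *Kit*, the gene of c-kit, had 7.17 FPKM (95% Wilson interval, 6.74 to 7.62) and *Cd34* had 5.22 FPKM. The stem cell genes *Procr*, *Hlf* and *Mecom* were below 1 FPKM, at 0.218, 0.844 and 0.0510 FPKM. *Ly6g*, whose product is bound by the Gr-1 antibody against the granulocyte lineage, had 194 FPKM, 27.0 times *Kit* (95% interval, 25.2 to 29.1). All 9 genes of a mature neutrophil marker list reached 1 FPKM, from 58.8 FPKM for *Fpr1* to 26677 FPKM for *S100a9*. Markers of further lineages were present as well, the median being 3468 FPKM for 4 erythroid genes, 173 FPKM for 5 B cell genes, 16.2 FPKM for 3 megakaryocyte genes and 5.02 FPKM for 3 T cell genes. These mRNA levels go against a gate without lineage markers, and the low *Kit*, at rank 6355 of all genes, goes against the c-kit+ label as well, so the library is called the Ctrl library here. How much of the granule gene levels came from lineage-positive cells was not tested. In bulk RNA, fewer cells of a type and less RNA per cell cannot be told apart.

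Sequences before the start sites are shown for *Camp*, *Ngp* and *Ltf*, which lie near each other on chromosome 9, and for *Lyz2* and *Chil3* beside their near-identical neighbours *Lyz1* and *Chil4*, whose levels were far lower. They are from RefSeq on GRCm38.p6, run 5′ to 3′ on the strand of the gene, and stop before the first start that RefSeq or GENCODE gives. Capitals mark the letters TTGCNNAA, the core bound by C/EBP factors, or GAGGAA, the core bound by PU.1, on either strand, and the parts shown of *Camp*, *Lyz2* and *Chil3* hold neither.
Camp, chr9:109849618-109849706, reverse strand: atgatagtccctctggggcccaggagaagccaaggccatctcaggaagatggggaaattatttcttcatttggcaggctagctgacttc
Ngp, chr9:110419558-110419746, forward strand: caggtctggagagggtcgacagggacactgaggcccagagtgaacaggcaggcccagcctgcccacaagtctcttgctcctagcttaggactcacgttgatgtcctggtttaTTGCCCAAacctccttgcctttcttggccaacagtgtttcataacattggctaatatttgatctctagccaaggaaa
Ltf, chr9:111019042-111019270, forward strand: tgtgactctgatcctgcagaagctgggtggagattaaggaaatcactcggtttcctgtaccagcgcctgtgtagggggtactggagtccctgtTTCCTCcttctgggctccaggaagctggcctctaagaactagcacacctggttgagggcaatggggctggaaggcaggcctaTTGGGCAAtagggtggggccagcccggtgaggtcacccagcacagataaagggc
Lyz2, chr10:117282322-117282522, reverse strand: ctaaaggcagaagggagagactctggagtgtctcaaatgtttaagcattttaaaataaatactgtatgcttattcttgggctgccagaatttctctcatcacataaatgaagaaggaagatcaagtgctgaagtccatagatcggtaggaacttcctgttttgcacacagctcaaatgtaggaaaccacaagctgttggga
Lyz1, chr10:117292869-117293118, reverse strand: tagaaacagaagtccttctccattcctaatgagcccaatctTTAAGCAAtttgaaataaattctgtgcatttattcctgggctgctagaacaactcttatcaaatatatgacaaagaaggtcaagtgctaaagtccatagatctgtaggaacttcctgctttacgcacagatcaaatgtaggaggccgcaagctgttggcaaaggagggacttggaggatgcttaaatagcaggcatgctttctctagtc
Chil3, chr3:106167565-106167814, reverse strand: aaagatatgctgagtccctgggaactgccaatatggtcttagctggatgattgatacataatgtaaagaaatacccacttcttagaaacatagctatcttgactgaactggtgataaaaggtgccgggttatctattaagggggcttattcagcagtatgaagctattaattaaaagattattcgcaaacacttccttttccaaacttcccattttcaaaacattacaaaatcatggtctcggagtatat
Chil4, chr3:106219508-106219729, reverse strand: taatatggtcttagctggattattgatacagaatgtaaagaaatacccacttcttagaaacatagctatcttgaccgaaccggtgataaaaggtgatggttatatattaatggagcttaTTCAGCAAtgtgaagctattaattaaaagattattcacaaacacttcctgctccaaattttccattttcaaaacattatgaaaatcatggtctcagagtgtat

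In the Ctrl library all 10 granule genes were among the 100 most abundant genes. All 10 reached 1 FPKM, where 22.2% of all genes listed did, and all 10 reached 100 FPKM, where 0.948% of all genes did. At 1000 FPKM or more there were 6 of them, against 0.0623% of all genes. Their median level was 1719 FPKM, and that of the 21322 genes above 0 was 1.77 FPKM. Together they held 6.37% of the summed FPKM of the library, and 3.92% of its recovered fragments when length was not divided out (4.25% of the library total that the scale gives). The highest and the lowest of the 10 differed 18.1 times (95% interval, 17.8 to 18.3). The members were named with these levels known, so the counts describe the genes and are no test of them.

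**Figure D1:**
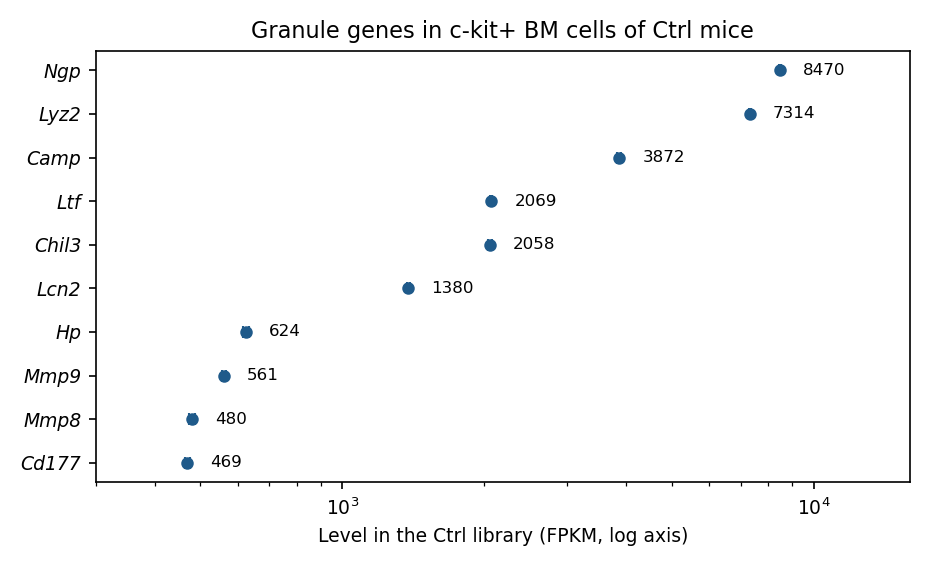
Level of each granule gene in the 1 Ctrl library, in FPKM on a log axis, with 95% Wilson intervals that cover counting error only and are mostly narrower than the points. From *Ngp* at 8470 FPKM to *Lcn2* at 1380 FPKM 6 genes lie above 1000 FPKM, and *Hp*, *Mmp9*, *Mmp8* and *Cd177* lie between 469 and 624 FPKM.

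Of the antimicrobial proteins, NGP is a granule protein related in sequence to the cathelicidins and cystatins. *Ngp* (ENSMUSG00000032484; GRCm38 chr9:110419747-110423012, forward strand) had the highest level of the 10, 8470 FPKM (95% Wilson interval, 8429 to 8511). It came from 163363 fragments and had rank 5 of all genes, behind *S100a9*, *S100a8* and globin genes. *Camp* (ENSMUSG00000038357; chr9:109847379-109849617, reverse strand) encodes cathelicidin, the precursor of the peptide CRAMP. It had 3872 FPKM (interval, 3837 to 3908) from 46327 fragments, rank 10. *Ngp* was thus 2.19 times *Camp* (95% interval of the ratio, 2.16 to 2.21). The coding sequences of both genes, each in 4 exons, were identical at 53.1% of 473 aligned bases, and no stretch of 50 bases was shared between the transcript of either gene and that of any other gene.

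*Lyz2* (ENSMUSG00000069516; chr10:117277331-117282321, reverse strand) encodes lysozyme, an enzyme that cuts bacterial cell walls, is stored in every class of neutrophil granule and is also made by monocytes and macrophages. Its level was 7314 FPKM (interval, 7278 to 7351) from 151930 fragments, rank 6. The neighbouring *Lyz1*, the lysozyme of intestinal Paneth cells, has its nearer end 5475 bases away and had 6.52 FPKM from 130 fragments. The ratio of *Lyz2* to *Lyz1* was 1122 (95% interval, 945 to 1343), although their coding sequences were identical at 422 of 444 bases. Of the 1217 windows of 100 bases in the *Lyz2* transcript, 24 (1.97%) occurred in *Lyz1* as well, and none occurred in another gene. At 50 bases the share was 15.4% of 1267 windows. Fragments that lie wholly in such windows cannot be assigned to either gene. The upstream sequences printed above come from windows of 250 bases that were identical at 200 of 248 aligned bases, or 80.6%.

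Monocyte and macrophage markers were measured too, since cells of that lineage make lysozyme. All 8 were at 1 FPKM or more, their median being 41.7 FPKM within a range from 1.74 FPKM for *Marco* to 72.7 FPKM for *F13a1*. The defining *Csf1r*, the receptor for macrophage colony-stimulating factor, had 51.5 FPKM. Their part in the level of *Lyz2* was not tested. Without *Lyz2*, the other 9 granule genes held 4.66% of the summed FPKM and had a median of 1380 FPKM.

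The iron-binding proteins starve microbes of iron, lactoferrin by holding the metal itself and lipocalin 2 by holding the siderophores that bacteria send out for it. *Ltf* (ENSMUSG00000032496; chr9:111019271-111042767, forward strand) encodes lactoferrin and had 2069 FPKM (interval, 2057 to 2081) from 112678 fragments, rank 17. Its 17-exon transcript makes it the longest of the antimicrobial genes here, and by fragments, with length not divided out, it ranked 7 and lay above *Camp* 2.43 times. Per length it was below *Camp*, at 0.534 of its level (95% interval, 0.529 to 0.540).

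*Lcn2* (ENSMUSG00000026822; chr2:32384633-32388252, reverse strand) encodes lipocalin 2, also called NGAL. Its level was 1380 FPKM (interval, 1369 to 1392) from 57144 fragments, rank 24. This value depends on the gene length more than that of the other members. The exons of its 6 annotated transcripts cover 2623 bases, while the longest single transcript has 1374. With the latter as its length the level was 2635 FPKM, above the 2603 FPKM of *Ltf* and the 2183 FPKM of *Chil3* on the same scale, and with its longest protein-coding transcript, of 915 bases, it was 3957 FPKM, above *Camp* too. Its place in the order is thus not fixed by these data. The cell surface receptor for lipocalin 2, *Slc22a17*, had 0.309 FPKM from 22 fragments.

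*Chil3* (ENSMUSG00000040809; chr3:106147554-106167564, reverse strand) encodes the chitinase-like protein Ym1, which binds sugars without cutting chitin and is made by granulocytes and by some macrophages. Its level was 2058 FPKM (interval, 2041 to 2076) from 53024 fragments, rank 19. By the deposited FPKM the intervals of *Chil3* and *Ltf* overlapped, and the ratio of *Ltf* to *Chil3* was 1.01 (95% interval, 0.995 to 1.02). With the longest transcript as gene length *Ltf* was 1.19 times *Chil3*, at 2603 against 2183 FPKM. *Chil4*, which lies 33925 bases away and whose coding sequence was identical to that of *Chil3* at 95.4% of 1194 aligned bases, had 0.0225 FPKM from 1 fragment. The ratio of *Chil3* to *Chil4* was 91525, with a 95% interval from 16426 to 3615109 since it rests on that 1 fragment. Of 1440 windows of 100 bases in the *Chil3* transcript, 78 (5.42%) occurred in another gene, 54 of them in *Chil4*. At 50 bases it was 438 of 1490 windows, or 29.4%. Among its more distant relatives, *Chil1* had 110 FPKM, *Chil5* had 8.94 FPKM and *Chil6* was listed at 0, which allows up to 0.114 FPKM (3 fragments).

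*Hp* (ENSMUSG00000031722; chr8:109575128-109579172, reverse strand) encodes haptoglobin, which binds free haemoglobin, is best known as a plasma protein from the liver and is also stored in neutrophil granules. It had 624 FPKM (interval, 615 to 634) from 15822 fragments, rank 51. The step down from *Lcn2* to *Hp* was the widest between neighbours in the order, at 2.21 times (95% interval, 2.17 to 2.25). With the longest transcript as gene length, the gene next above *Hp* was *Chil3*, and the step was 2.93 times. The liver markers *Alb*, *Apoa1* and *Ttr* had no fragment, a count that permits at most 0.0812, 0.154 and 0.160 FPKM (3 fragments). *Cd163*, the gene of the macrophage receptor that takes up haemoglobin bound to haptoglobin in humans, had 5.60 FPKM.

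Both metalloproteinases of the list cut proteins of the extracellular matrix, MMP8 the fibrillar collagens and MMP9 gelatin and basement membrane collagen. *Mmp9* (ENSMUSG00000017737; chr2:164940780-164955850, forward strand), the defining gene of tertiary granules, had 561 FPKM (interval, 555 to 567) from 31331 fragments, rank 61. *Mmp8* (ENSMUSG00000005800; chr9:7558456-7568485, forward strand) had 480 FPKM (interval, 473 to 487) from 18376 fragments, rank 77. *Mmp9* was 1.17 times *Mmp8* (95% interval, 1.15 to 1.19). None of 8 paralogs on the list of close relatives reached 1 FPKM, *Mmp13* being the highest of them at 0.782 FPKM, and *Mmp3*, *Mmp7*, *Mmp10* and *Mmp20* were listed at 0. The inhibitor *Timp2* had 25.7 FPKM, so that *Mmp9* was 21.8 times as high (95% interval, 20.7 to 22.9). *Timp3* had 0.405 FPKM and *Timp1*, whose product binds MMP9, had 0.143 FPKM from 2 fragments.

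*Cd177* (ENSMUSG00000052212; chr7:24743983-24760311, reverse strand) was the lowest of the 10 by the deposited FPKM, while with the longest transcript as gene length it had 491 FPKM and *Mmp8* was the lowest. It encodes a surface glycoprotein of neutrophils that is also held in the membrane of secondary granules. It had 469 FPKM (interval, 463 to 475) from 21027 fragments, rank 83. Its interval overlapped that of *Mmp8*, and the ratio of *Mmp8* to *Cd177* was 1.02 (95% interval, 1.003 to 1.044, which does not hold 1). Of its 2615 windows of 100 bases 1.87% occurred elsewhere, and of its 2665 windows of 50 bases 5.74%, in *BC049730* and *Gm4763*, and both were listed at 0. *Cd177* was 65.5 times *Kit* (95% interval, 61.4 to 69.8) and 2.42 times *Ly6g* (2.33 to 2.52). Of the proteins known to bind CD177, the endothelial adhesion molecule gene *Pecam1* had 10.6 FPKM and the protease gene *Prtn3* 379 FPKM.

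In the order of the deposited FPKM, the counting intervals of neighbours did not overlap in 7 of 9 steps. The exceptions were *Ltf* with *Chil3* and *Mmp8* with *Cd177*. None of these intervals covers the spread between mice. Of 9 receptors, partners and inhibitors of the granule proteins 6 reached 1 FPKM, the median of the 9 being 10.6 FPKM. Of 13 close paralogs of the granule genes 3 did so (*Chil1*, *Chil5* and *Lyz1*) and 5 were listed at 0, the median of the 13 being 0.0263 FPKM. No other gene of the table with GENCODE coordinates overlaps any of the 10 genes on either strand. Transcripts outside that annotation, and the 37 identifiers without coordinates in it, were not examined.

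**Figure D2:**
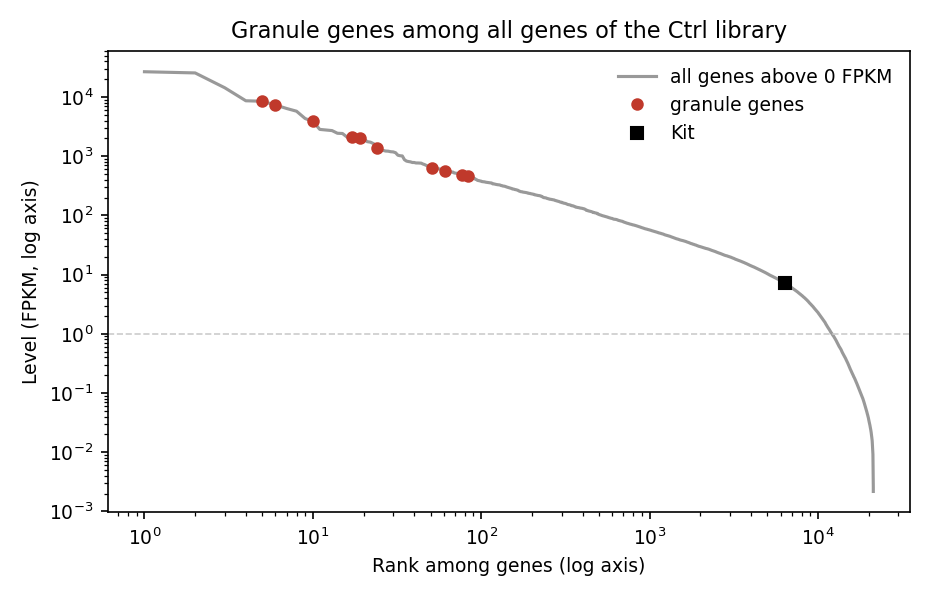
Level in FPKM against rank, both on log axes, for all genes above 0 FPKM in the Ctrl library (line), the 10 granule genes (round points) and *Kit* (square), with a dashed line at 1 FPKM. The granule genes occupy ranks 5 to 83, and *Kit* lies at rank 6355.

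Dividing by length changed the order among the granule genes. *Camp* has the shortest exons, 758 bases, and its share was 0.903% of the summed FPKM against 0.271% of fragments. *Ltf* and *Mmp9*, with 3450 and 3539 bases of exon, moved the other way. *Ltf* went from 0.483% to 0.658% and *Mmp9* from 0.131% to 0.183%. *Ngp* and *Lyz2* were the 2 highest members on both scales, with 1.98% and 1.71% of the summed FPKM and 0.955% and 0.888% of the fragments. *Hp* was the lowest by fragments, at 0.0925%.

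**Figure D3:**
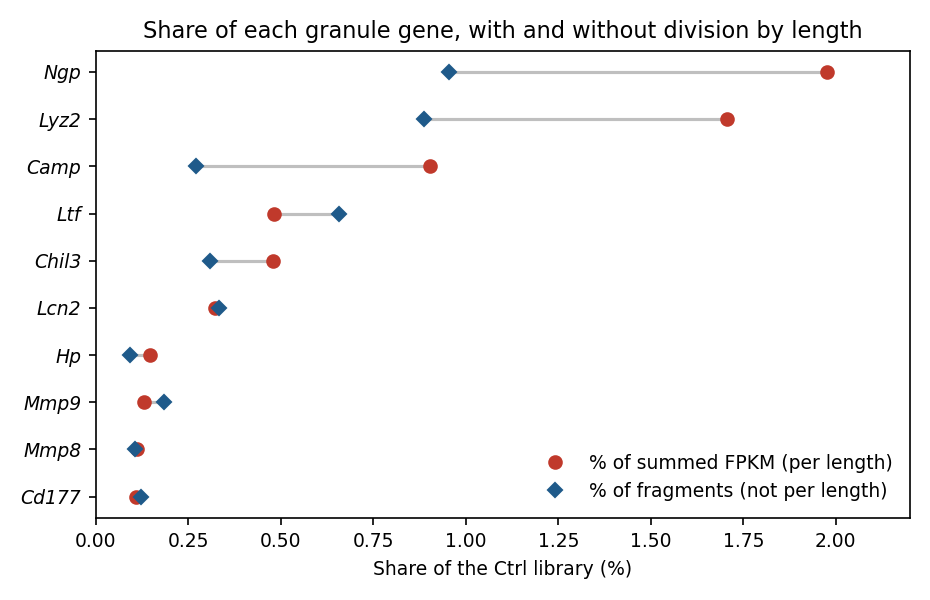
Share of the Ctrl library taken by each granule gene, as a percentage of the summed FPKM (round points, per length) and of recovered fragments (diamonds, not per length). *Ngp* leads on both scales, *Camp* drops from 0.903% to 0.271%, and *Ltf* rises from 0.483% to 0.658%.

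The granule genes were set beside the primary granule genes, which are made a stage earlier. The median of 8 primary granule genes was 145 FPKM, each of them being at 1 FPKM or more, and the median of the 10 secondary and tertiary genes was 11.9 times as high. The ratio is that of these 10 and 8 named genes alone. The primary median fell in a gap, between *Cd63* at 48.6 FPKM and *Ctsg* at 241 FPKM, so the ratio depends on which genes were listed. The medians of other secondary and other tertiary granule genes, 108 and 28.1 FPKM, lay below the primary median. The primary list was led by *Elane* (neutrophil elastase) at 781 FPKM and *Mpo* (myeloperoxidase) at 434 FPKM, followed by *Prtn3* (proteinase 3) at 379 FPKM and *Ctsg* (cathepsin G) at 241 FPKM. *Cd63*, *Ctsc* and *Gusb* had 48.6, 28.6 and 22.5 FPKM, and *Prss57* was the lowest, at 14.3 FPKM. *Ngp* was 10.8 times *Elane* (95% interval, 10.6 to 11.0), *Camp* 4.96 times *Elane* (4.86 to 5.06) and *Ltf* 4.77 times *Mpo* (4.70 to 4.83). *Elane* was nonetheless above *Hp*, *Mmp9*, *Mmp8* and *Cd177*, so the levels of the earlier and later stage overlapped. In all, the 10 genes held 6.37% of the summed FPKM and the 8 primary genes 0.455%. Without *Lyz2*, whose product is stored in every granule class, the other 9 held 4.66%.

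The further genes of the secondary and tertiary granules that were examined did not reach the members' range. Members and lists were chosen with earlier results of these data known, so this describes the genes and is no test of them. The median of 11 other secondary granule genes was 108 FPKM, 10 of them reached 1 FPKM, and the highest, *Cyba*, had 348 FPKM, below *Cd177*. *Cyba* and *Cybb*, at 223 FPKM, encode the membrane subunits of the phagocyte NADPH oxidase. *Pglyrp1*, a peptidoglycan recognition protein, had 338 FPKM, and the integrin chain genes *Itgb2* and *Itgam* had 319 and 52.9 FPKM. *Olfm4*, which marks a subset of neutrophils, had 88.6 FPKM, while *Ptx3* was listed at 0 (up to 0.0709 FPKM). The median of 6 other tertiary granule genes was 28.1 FPKM, and 5 of them reached 1 FPKM. *Fcnb*, a ficolin that binds microbial sugars, was the highest at 198 FPKM, and *Mmp9* was 2.84 times as high (95% interval, 2.75 to 2.93). *Mmp25*, a membrane-bound metalloproteinase, had 37.8 FPKM and *Arg1* 0.341 FPKM.

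Genes of secretory vesicles and of the surface of late neutrophils, which follow the granule genes in maturation, reached 1 FPKM in 5 of 7 cases. The mature neutrophil markers hold 4 of these 7 genes. *Csf3r*, the receptor for granulocyte colony-stimulating factor, was the highest at 212 FPKM, and the chemokine receptor gene *Cxcr2* had 109 FPKM. *Fpr2*, whose product is a receptor for CRAMP, had 118 FPKM. *Alpl* and *Mme* were low, at 0.990 and 0.0604 FPKM. Cycling was also measured, as granule genes of the myelocyte stage are made by cells that may still divide. All 4 cycling genes were above 1 FPKM and had a median of 61.1 FPKM, *Mki67* being the highest at 110 FPKM and *Cdk1* the lowest at 30.9 FPKM, and which cells these fragments came from cannot be read from 1 bulk library.

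**Figure D4:**
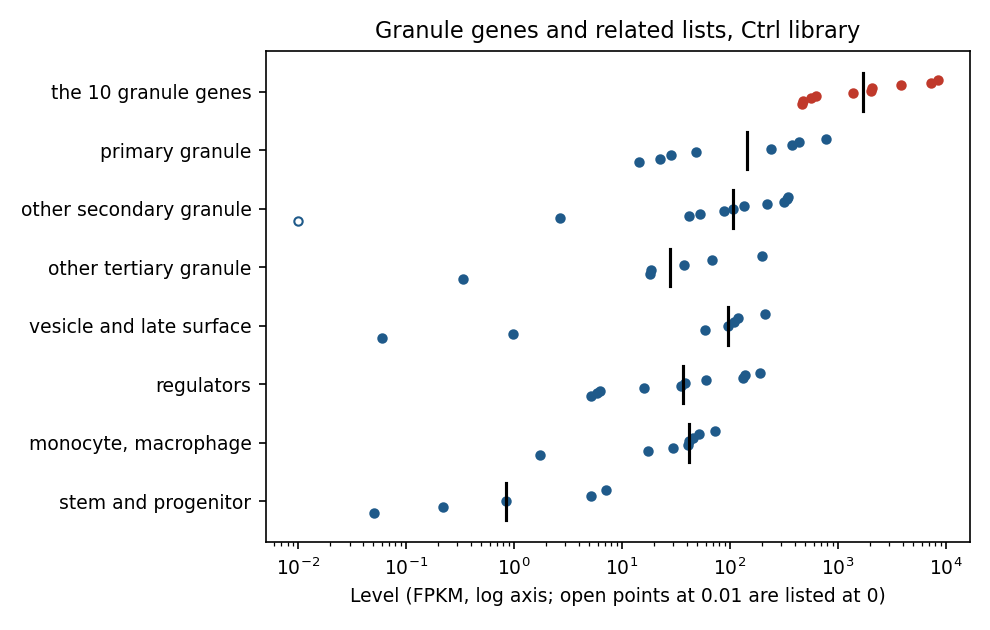
Level in FPKM on a log axis of each gene of the 10 granule genes and of 7 other lists in the Ctrl library, with 1 point a gene, a vertical bar at each median and open points at 0.01 for genes listed at 0. The granule genes have a median of 1719 FPKM, against 145 FPKM for primary granule genes, 108 FPKM for other secondary granule genes and 0.844 FPKM for stem and progenitor genes.

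All 10 regulators chosen for granule gene transcription reached 1 FPKM. *Cebpe*, the gene of C/EBPε, had 131 FPKM (interval, 126 to 137), 3.45 times *Cebpa* at 38.1 FPKM (95% interval of the ratio, 3.23 to 3.67), whose product acts earlier in the lineage. *Cebpb* was the highest, at 190 FPKM, and *Cebpd* had 35.4 FPKM. *Spi1*, the gene of PU.1, had 137 FPKM. *Smarcd2*, a chromatin remodelling subunit whose loss causes a deficiency of specific granules, had 60.3 FPKM, and the repressor gene *Gfi1* had 15.9 FPKM. The median of the 10 regulators was 36.8 FPKM, and *Runx1*, *Cux1* and *Klf5* were between 5.24 and 6.34 FPKM.

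RefSeq windows from 250 bases before to 50 after a start were held for 8 members, that is for all but *Hp* and *Mmp9*. The C/EBP letters TTGCNNAA occurred on either strand in 4 of the 8, *Ltf*, *Ngp*, *Lcn2* and *Mmp8*, and in 10.8% of 32851 windows of the same length outside chromosome 18. In *Ngp* they began at positions -138 and -11 from the start, in *Ltf* at -75, in *Lcn2* at -216 and in *Mmp8* at -19. The RefSeq start lies inside the gene that GENCODE gives, by 61 bases for *Ngp* and 513 for *Lcn2*. The *Ngp* match at -11 and the *Lcn2* match thus lay within the annotated gene. The PU.1 letters GAGGAA occurred in 4 of the 8, *Ltf*, *Lcn2*, *Mmp8* and *Cd177*, against 28.3% of all windows. That of *Lcn2*, at -20, also lay within the annotated gene. The TATA box letters TATAAA occurred in 3 of the 8, *Chil3*, *Mmp8* and *Cd177*, against 13.6% of all windows. In *Chil3* and *Mmp8* they ran across the start, from -3 to 3, in *Mmp8* on the opposite strand. Among the members, only in *Cd177* did they lie wholly before the start, from -40 to -35 on the strand of the gene. No matches overlapped within any of these windows. In the paralogs the C/EBP letters were found in *Lyz1* at -209, in *Chil4* at -131 and in *Chil6* at -15, and in neither of the windows of *Lyz2* and *Chil3*. The TATA box letters were found in *Chil4* from -31 to -26 and in *Chil6* from -204 to -199, both on the strand of the gene. In *Chil4* they ran across the start that GENCODE gives, 28 bases before that of RefSeq. The PU.1 letters were found in *Chil6* at 34. These are matches of letters alone, with no measurement of binding.

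On chromosome 9 the genes *Camp*, *Ngp* and *Ltf* lay within a span of 1195389 bases, with 570129 bases between *Camp* and *Ngp* and 596258 between *Ngp* and *Ltf*. The library had 51 other listed genes in that span, 28 of them protein-coding. Of the 51, 15 reached 1 FPKM, 21 were listed at 0 and none reached 100 FPKM. The highest was *Nbeal2*, a gene needed for platelet alpha granules and neutrophil granules, at 37.6 FPKM, and the 28 protein-coding genes had a median of 1.17 FPKM. *Camp*, *Ngp* and *Ltf* held 99.0% of the summed FPKM of the span. High levels were thus seen at these separate genes and not along the span between them. *Mmp8* is on the same chromosome, far from this span.

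**Figure D5:**
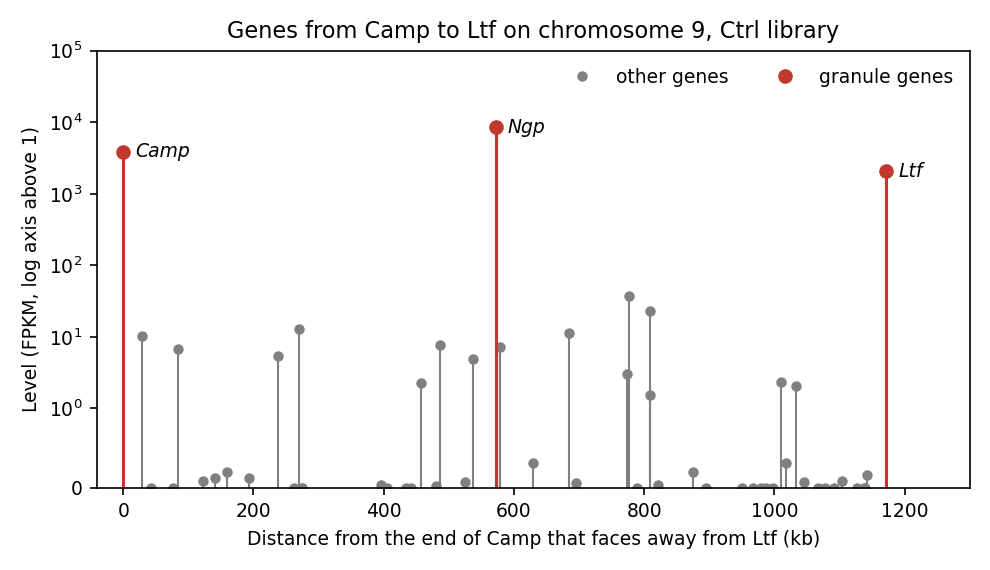
Level in FPKM of each of the 54 listed genes from *Camp* to *Ltf* on chromosome 9 (axis linear below 1 FPKM and log above) against the distance in kb from the end of *Camp* that faces away from *Ltf*. *Camp*, *Ngp* and *Ltf* stand at 3872, 8470 and 2069 FPKM, and the other 51 genes reach 37.6 FPKM at most.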

How the data were processed

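RNA of sorted c-kit+ BM cells from Ctrl mice was sequenced on an Illumina HiSeq instrument by the authors. They deposited FPKM values, fragments per gene scaled by gene length and library total. The submitters' processing notes name mm10, HISAT2 2.0.5 and featureCounts 1.5.0-p3, without settings. FPKM corrects for length with the annotation used, and counting settings decide how shared fragments are treated.

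Names, lengths (bases under any exon) and coordinates came from GENCODE M21 on GRCm38, which is mm10, and 37 identifiers were not in it. FPKM times length was a whole multiple of a common step, within 0.01, for 96.4% of genes above 0 and for all 10 members. The multiples were taken as fragments, which, with the total that the step gives, led to 95% Wilson intervals and exact (Clopper-Pearson) 95% intervals of ratios. Both cover counting error only. They take fragments as independent, which PCR copies are not, so they may be too narrow. The limit for a gene listed at 0 is 3 fragments. The recovery was tested on simulated fragments whose total was their sum over genes, which the deposited values do not meet. Median, share, rank and the number at 1 FPKM were computed, with no test, as there is 1 library.

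Members and lists were chosen with earlier results of these data known. All members and all primary granule genes are named. Of each other list the highest and lowest genes and those a sentence on a member needs are named. *Nbeal2*, *BC049730* and *Gm4763* were named after their values were seen. Motifs were also chosen after that. The level of 1 list gene, and the list median that rests on it, are not reported here. Identity is over aligned bases of a global alignment, and shared windows are exact matches in GENCODE transcripts on either strand. Python 3.11.15, numpy 2.4.6, pandas 2.3.3, scipy 1.17.1, Biopython 1.88 and matplotlib 3.10.9 were used.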

Additional observations from a re-analysis of the deposited data

How the results depend on the processing

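No paired analysis was possible because a single library without replicates was analysed. All 10 granule genes passed minimums of 0.1 FPKM, 10 FPKM and 10 recovered fragments as well as 1 FPKM. Their share, 6.37% of the summed FPKM, was 8.30% without the 10 most abundant genes that are not members, 6.63% without mitochondrially encoded genes and 3.92% of fragments not divided by length, or 4.25% of the library total that the scale of the values gives, a setting chosen after seeing the data. Their median of 1719 FPKM was 1876 and 1753 FPKM with the 10 most abundant or the mitochondrially encoded genes left out of the total, which rescales every gene alike. It was 2393 FPKM with the longest transcript as gene length, also with the longest protein-coding transcript (added after seeing the data), and 4010 as TPM, a rescaling of the same values. With the longest transcript 6 of 10 levels left their intervals, by construction upward, and that of *Lcn2* moved most. Ranks among protein-coding genes stayed within 1.5 times for all 10, and ranks by fragments for 5 of 10. The share of genes at 1 FPKM, 22.2% of all listed, was 56.8% of genes above 0 and 46.8% of protein-coding genes. Depth was ample for the 10 genes and limits relatives such as *Chil4* (1 fragment) and *Timp1* (2 fragments). The spread between mice is unknown.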

Other observations

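Granule genes of other granulocytes were present in the same library. *Prg2*, the gene of eosinophil major basic protein, had 2766 FPKM (95% Wilson interval, 2738 to 2794) and ranked 12, between *Camp* and *Ltf*. *Epx* (eosinophil peroxidase) had 216 FPKM, *Prg3* 119 FPKM, and the basophil protease gene *Mcpt8* 87.0 FPKM. All 5 eosinophil and basophil genes examined reached 1 FPKM, and they held 0.783% of the summed FPKM against 6.37% for the 10 neutrophil granule genes. *Retnlg*, which neutrophils make and which was not a member, had 2831 FPKM at rank 11, and *Ngp* was 2.99 times as high (95% interval, 2.95 to 3.03).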
